A study of Equus caballus with 93 samples.

Results

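In cells of equine synovial fluid, 150 of 15838 measured genes were taken as a group whose mean level differed little between the sample before joint surgery and week 2 and was higher over weeks 4 to 10. Values are log2 CPM, reads relative to library size on a log2 scale. The choice used a week's mean over libraries of both treatment arms. Members had a mean log2 CPM of 1 or more, a week 2 mean within 0.5 of the week 0 mean, and a mean of the week 4, 6, 8 and 10 means at least 0.5 above week 0. This last difference is called the late change below. In all, 187 genes met these conditions and the 150 with the highest late change were kept. The last member inside had a late change of 0.531257 and the first gene outside one of 0.530298, so the lower edge is a matter of number and not of a gap in the data. The members were thus chosen by their late change and their week 2 difference, so these values are given as descriptions without a test.

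The cells came from 16 horses of 2 to 5 years, 7 mares and 9 geldings. Each horse had an osteochondral fragment, a chip of cartilage and bone, made surgically in 1 middle carpal joint to induce osteoarthritis, and the opposite limb had a sham operation. The operated joint received 2 mL of saline (Control, 8 horses) or 2 mL of 2.5% iPAAG, a polyacrylamide hydrogel (8 horses), at week 2, and all horses of both arms were exercised on 5 days a week from week 2 to week 10. Fluid was taken at weeks 0, 2, 4, 6, 8 and 10, with week 0 before surgery, which gave 93 libraries in 12 groups of 7 or 8. Whether the week 2 fluid was drawn ahead of the injection is not stated. Time after surgery and exercise changed together in both arms, so their parts in a change over weeks cannot be told apart.

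Synovial fluid lubricates and nourishes cartilage. It holds few cells in a healthy joint, mainly mononuclear cells, and after joint injury leukocytes enter it from the blood and cells are shed from the synovial membrane. A bulk RNA profile of this fluid averages over whatever cells it holds, so fewer cells of a type and less RNA per cell cannot be told apart. Genes carry Ensembl horse identifiers in the deposited table, and none of the 15838 could be paired with a gene symbol. The roles of the members are therefore unknown here, the cells could not be checked against marker genes, and lists of cell type markers and pathways could not be applied. Members are given by rank in late change, with identifiers for 3 of them.

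Libraries entered the choice of members only if their spread, the SD of log2 CPM over all genes, was 2 or more. These 70 libraries held 6076026 to 39916655 reads in genes and had a spread of 2.19 to 4.21. They comprised 8, 7, 7, 6, 7 and 6 Control libraries at weeks 0, 2, 4, 6, 8 and 10, and 7, 7, 3, 4, 6 and 2 iPAAG libraries. The other 23 libraries, from 12 horses, had a spread of 1.20 to 1.90 and are used below as samples that had no part in the choice. Unless stated otherwise, values refer to the 70 libraries.

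The members were nearly level up to week 4 and higher from week 6. Their median difference from week 0 was 0.28, 0.17, 0.72, 0.95 and 0.94 over weeks 2, 4, 6, 8 and 10. Over all genes the same medians were 0.01, -0.07, -0.01, -0.01 and -0.06. At week 2, 118 of the 150 members already had a mean above week 0, within the limit that the choice set. At week 4, 52 members were at or below their week 0 mean, whereas at weeks 6 and 8 all 150 were above it and at week 10, 145 were. The step between week 4 and week 6 had a median of 0.59 and was upward for 134 members, while that between week 2 and week 4 had a median of -0.09 and was upward for 57. The low week 4 level rests in part on the Control horse 9 library. Averaged over the members it was at -1.17, with the other Control libraries of week 4 at 0.14 to 0.60. The mix of arms also changed, from 7 Control and 7 iPAAG libraries at week 2 to 7 and 3 at week 4. Its part in the pooled step was not tested. Weeks 2 and 4 had medians of 0.20 and 0.34 in Control libraries and of 0.27 and 0.18 in iPAAG libraries. Within horses, 5 of 9 were higher at week 4 than at week 2, by a median of 0.10. The members were higher from week 6, which the choice on the mean of weeks 4 to 10 partly builds in. A smaller rise between week 2 and week 4 is not settled.

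The late changes were mostly small. They ran from 0.53 to 3.09 with a median of 0.63, against -0.05 over all genes. Only 19 members had a late change of 1 or more, 5 of 1.5 or more and 2 of 2 or more. Mean levels of the members covered 1.01 to 10.37 log2 CPM with a median of 4.54, near the median of 4.93 over genes with a mean of 1 or more. All 150 members had a median of at least 35 reads at week 0, and 132 had a read in each of the 15 libraries of that week. Of 15 horses with a week 0 library and a later one, between 5 and 15 were higher over the late weeks, with a median of 11 horses per member. In 7 members all 15 horses were higher, and in 73 members 12 or more were.

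**Figure D1:**
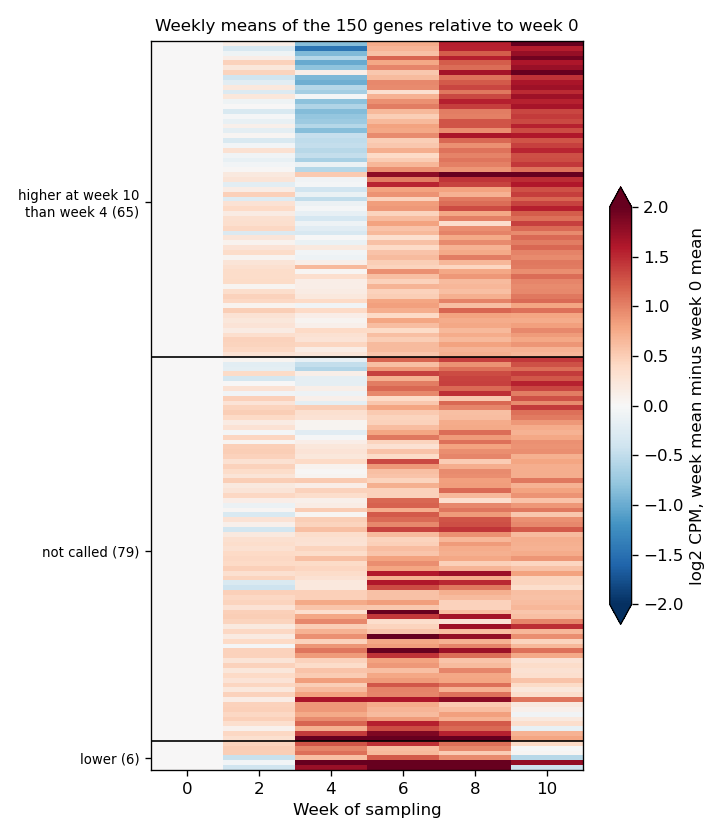
Weekly mean log2 CPM of each of the 150 genes minus its week 0 mean, over both arms (rows, genes; columns, weeks of sampling), with colours limited to 2 in either direction. The upper 65 genes were called higher at week 10 than at week 4 and are mostly pale or blue at week 4, the 6 lowest rows were called lower, and the 79 between them were not called.

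Members with the largest late changes had another course than the rest. Of the 19 with a late change of 1 or more, 14 had their highest mean at week 6 or 8 and 5 at week 10, and their medians relative to week 0 were 0.86, 1.56, 1.66 and 1.07 over weeks 4, 6, 8 and 10. Of the other 131, 71 were highest at week 10, with medians of 0.13, 0.67, 0.88 and 0.94 at the same weeks. Over all 150 members, weeks 4, 6, 8 and 10 held the highest late mean of 6, 30, 38 and 76 members. Over 15834 genes the counts for these weeks were 5270, 3804, 2695 and 4065, so week 4 was the most frequent peak there and the least frequent among the members. The choice used the week 2 difference and the late means themselves, so this contrast may be partly built in.

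Averaged over the 150 members, the level of each library relative to the week 0 means separated the weeks only in part. At week 0 the 15 libraries ran from -1.59 to 0.78 with a median of 0.15. At week 2 the 14 libraries ran from -0.63 to 0.85 (median 0.15) and at week 4 the 10 libraries from -1.17 to 0.75 (median 0.26). These 3 weeks overlapped widely. At week 6 the 10 libraries ran from -0.01 to 1.30 (median 1.01), at week 8 the 13 libraries from 0.08 to 1.64 (median 1.09), and at week 10 the 8 libraries from 0.60 to 1.22 (median 1.00). The lowest week 10 library was thus below the highest week 0 library, although the medians were far apart.

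Within horses, all 9 with both weeks were higher at week 6 than at week 0, and so were 12 of 13 at week 8 and 7 of 7 at week 10, but only 4 of 10 at week 4. The median change in these horses was -0.05, 0.98, 0.96 and 0.68 over weeks 4, 6, 8 and 10. Relative to their own week 4, 5 of 6 horses were higher by week 6, 8 of 9 by week 8 and 5 of 5 by week 10. As a share of all reads in genes, the members held medians of 1.30%, 1.33% and 1.34% over weeks 0, 2 and 4, and of 2.20%, 2.15% and 2.40% over weeks 6, 8 and 10. The choice used these same libraries, so the horse counts and shares are descriptions and not separate evidence of a rise. The same holds for the counts of horses per member given above.

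**Figure D2:**
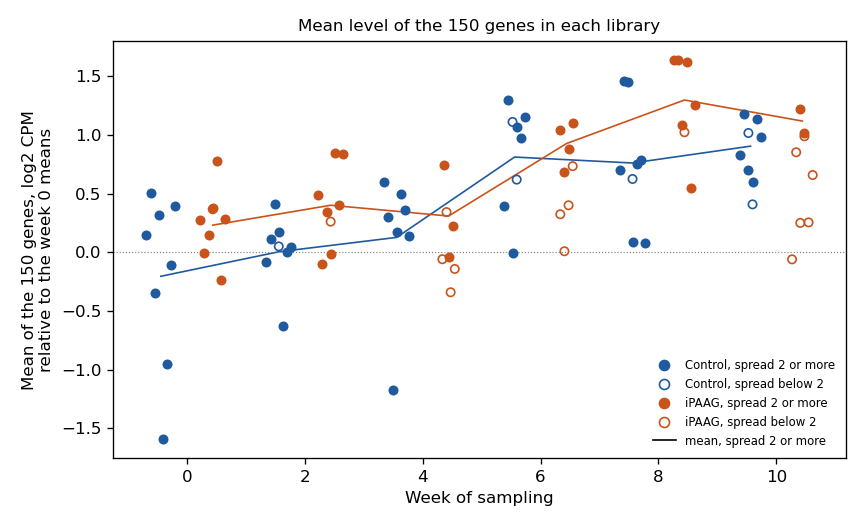
Mean over the 150 genes of log2 CPM minus the gene's week 0 mean, one point per library (vertical axis) against week of sampling (horizontal axis). Filled points are libraries with a spread of 2 or more and open points the others, and lines join the means of the filled points in each arm; filled points at weeks 6 to 10 lie between -0.01 and 1.64.

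One week 0 library stood apart and bears on the late changes. The Control horse 11 library of week 0 had the lowest mean level of the members, -1.59, against -0.95 for the next lowest library of week 0, and the highest spread of all libraries, 4.21. It was the lowest of week 0 for 51 of the 150 members and for 23.7% of genes with a mean of 1 or more. Without it the median late change was 0.58, 111 members still had one of 0.5 or more, and 102 were chosen again. The weekly medians were then 0.16, 0.15, 0.62, 0.84 and 0.86 at weeks 2, 4, 6, 8 and 10. Leaving out a week 0 library cannot change a gene's differences between the means of later weeks. It does enter the limma fits below, where libraries of a horse form a block. Without it, week 10 against week 4 called 76 members (3552 genes) instead of 71 (3307 genes). Weeks 8 and 10 against weeks 4 and 6 called 76 (3850 genes) instead of 70 (3592 genes). Library spread also moved with the members: the slope of level on spread over the 70 libraries was below 0 in 130 members, with a median of -0.28, against 57.1% and -0.03 for genes with a mean of 1 or more. As a description over the 70 libraries, which share horses and weeks, the mean level of the members had a correlation of -0.27 with spread and -0.15 with the log10 of reads. The part of spread in the late changes was not tested.

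ENSECAG00000001174 had the largest late change, 3.09. Its log2 CPM ran from 3.46 to 7.75 in the week 0 libraries (median 4.49) and from 3.13 to 7.86 in those of week 2 (median 4.42). Week 4 spanned 4.78 to 10.07 (median 7.82), week 6 5.73 to 10.41 (median 9.43), week 8 5.62 to 10.34 (median 8.72) and week 10 4.99 to 10.10 (median 6.03). The gene was thus already higher at week 4, highest at week 6, and lower again in most libraries by week 10. The highest values of weeks 0 and 2 both belonged to Control horse 1. All 15 horses were higher over the late weeks, and 9 of 9 were higher at week 6 than at week 0, by a median of 4.29. In reads, its median was 563 at week 0 and 10318 at week 6.

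ENSECAG00000023416, the second in late change at 2.15, was less abundant. Its values spanned -2.44 to 4.32 in the week 0 libraries (median 0.17) and -1.40 to 4.46 in those of week 2 (median 0.99). Week 4 spanned 1.08 to 5.21 (median 3.06), week 6 0.88 to 6.15 (median 3.95), week 8 0.25 to 5.59 (median 3.31) and week 10 -0.20 to 3.03 (median 1.50). Every week overlapped week 0, and 14 of 15 horses were higher over the late weeks. At week 10 only 3 of 7 horses remained above their own week 0 value. With 4 to 520 reads at week 0, the lower values depend on the 0.5 reads added to each count.

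ENSECAG00000009626, seventh in late change at 1.38, was the clearest case of a rise that had ended by week 10. It ran from 6.24 to 9.04 before surgery (median 7.38) and from 5.33 to 10.93 in week 2 libraries (median 6.59). Week 4 spanned 7.68 to 10.57 (median 9.58), week 6 6.65 to 10.77 (median 10.04), week 8 8.81 to 10.48 (median 9.44) and week 10 5.60 to 9.26 (median 6.80). Values at week 10 were back in the range of weeks 0 and 2, and all week 8 values were above all but 1 at week 0. None of 5 horses was higher at week 10 than at week 4, and none of 7 was higher at week 10 than at week 6.

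**Figure D3:**
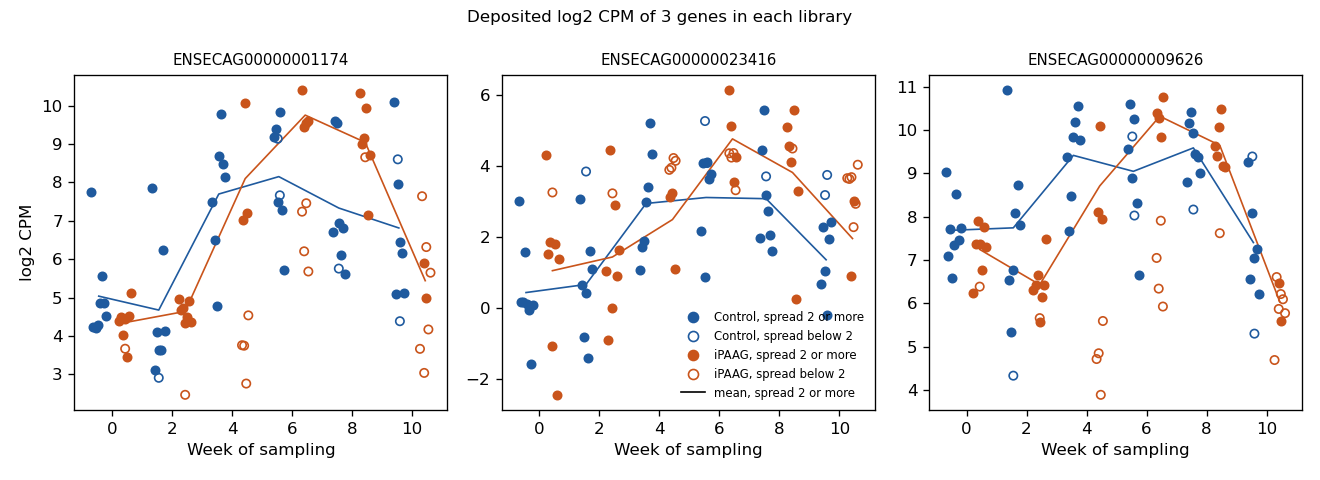
Deposited log2 CPM of ENSECAG00000001174, ENSECAG00000023416 and ENSECAG00000009626 in every library (vertical axes) against week of sampling, by arm. Filled points have a spread of 2 or more, open points a lower one, and lines join the means of the filled points; all 3 genes are highest in the middle of the late weeks and fall towards week 10.

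Week 10 was then compared with week 4 to see how the members moved within the late weeks, over which the choice only averaged. With limma, 71 members were called at an adjusted p below 0.05, beside 20.9% of all 15838 genes. Of these, 65 were higher and 6 lower, beside 10.4% and 10.5% of all genes. The median difference over members was 0.72 against 0.03 over all genes, with a range of -2.35 to 3.05, and 124 members were above 0. The choice used the week 4 and week 10 values themselves, so the count above the share for all genes is not separate evidence about the group. Each call stands for its own gene.

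The 65 members called higher had medians relative to week 0 of 0.21, -0.12, 0.64, 1.00 and 1.27 over weeks 2, 4, 6, 8 and 10. Their low week 4 level is part of the contrast: many lie below week 0 at week 4 in the map of weekly means. The 6 called lower had medians of 0.20, 1.18, 1.35, 1.03 and 0.02 over the same weeks. The 79 not called had medians of 0.33, 0.39, 0.79, 0.90 and 0.73. Of the 19 members with a late change of 1 or more, 4 were called higher and 3 lower. After the means of arm and week were taken out, members called higher had a median correlation with each other of 0.39 over the 70 libraries, the 6 called lower one of 0.57, and the correlation between both sets was -0.07. Over all pairs of members the median was 0.23, and over pairs of genes with a mean of 1 or more 0.02. These are descriptions over libraries that share horses and depth. The members and both called sets were chosen on these same libraries, which can raise their correlations.

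ENSECAG00000009626 was lower at week 10 than at week 4 by a fitted difference of -2.35 ± 0.50 (SE, adjusted p = 0.00133). Its Control libraries ran from 7.68 to 10.57 (median 9.78, n = 7) at week 4 and from 6.21 to 9.26 (median 7.15, n = 6) at week 10, while the iPAAG libraries were at 7.94, 8.10 and 10.09 and then at 5.60 and 6.47. The iPAAG values did not overlap and the Control values did. ENSECAG00000001174 had a difference of -1.81 ± 0.67 (SE, limma adjusted p = 0.0448), a call near the threshold. This call was lost in 17 alternative fits and kept in 12. Leaving out any 1 of 10 horses, voom weights or another treatment of the horse block were among those that ended it. The Control libraries of ENSECAG00000001174 ran from 4.78 to 9.80 (median 8.13) at week 4 and from 5.09 to 10.10 (median 6.31) at week 10. Its iPAAG libraries went from 7.02, 7.22 and 10.07 to 4.99 and 5.90. ENSECAG00000023416 had a difference of -1.11 ± 0.80 (SE, adjusted p = 0.328) and was not called. As a description over the 70 libraries, ENSECAG00000001174 and ENSECAG00000009626 had a correlation of 0.80 after the means of arm and week were taken out, and ENSECAG00000001174 and ENSECAG00000023416 one of 0.38.

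These calls weigh the arms equally, and the iPAAG mean at week 10 comes from horses 5 and 14 alone. Without horse 5 most calls were lost, among the members and over all genes alike. The median difference over members was then 0.63 instead of 0.72, and without horse 14 it was 0.89. Each of these fits leaves 1 iPAAG library at week 10, which is assumed to vary like the other groups. Without horse 12, 38 members were called, beside 1934 of all 15838 genes. In Control libraries alone 52 members were called, 45 higher and 7 lower, beside 18.8% of all genes called, 7.29% higher and 11.5% lower. With week means over both arms and arm as an added term, which gives each library equal weight, 84 members were called, 77 higher and 7 lower, beside 28.7% of all genes, 13.3% higher and 15.5% lower. That fit called 79 members without horse 5, beside 4026 of all 15838 genes. ENSECAG00000009626 was called in Control libraries alone too, at -2.01 (adjusted p = 0.0156).

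Weeks 8 and 10 together against weeks 4 and 6 gave a similar picture that rested more on 1 horse. With limma, 70 members were called, beside 22.7% of all genes. Of these, 62 were higher, beside 10.6% of all genes, and 8 lower, beside 1907 of the 15838 genes, and the median was 0.49 against -0.01. Of the members, 56 were called higher and 5 lower in both late comparisons, and none was called in opposite directions. Both comparisons share the libraries of weeks 4 and 10, so agreement in direction is partly built in. The same overlap was not counted over all genes, so it says nothing particular about the members. ENSECAG00000009626 had a difference of -1.20 ± 0.32 (SE, adjusted p = 0.00599) and ENSECAG00000001174 one of -1.27 ± 0.42 (SE, adjusted p = 0.0249). Without horse 5 nearly all calls were lost, among the members and over all genes alike, and the median over members was 0.39. Both genes lost their call, at -1.31 and -1.45. ENSECAG00000001174 lost it also without horse 12, 13 or 14. Over all alternative fits, ENSECAG00000001174 lost its call in 8 and kept it in 21, and ENSECAG00000009626 lost it in 4 and kept it in 25. With week means over both arms and arm as an added term, 76 members were called, 70 higher and 6 lower, beside 23.4% of all genes. Without horse 5 that fit called 31 members, beside 1819 of the 15838 genes. In Control libraries alone limma called 0 members and 0 genes, with 38 members at an unadjusted p below 0.05, beside 15.5% of all genes (2454).

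The 23 libraries of low spread gave a look at the same genes in samples that had no part in the choice, although their 12 horses also gave libraries that had. Weeks 6 to 10 (5 Control and 11 iPAAG libraries) were compared with weeks 0 to 4 (1 Control and 6 iPAAG), a split chosen after the weekly values had been seen. The mean level of the members ran from -0.34 to 0.37 (median 0.05) in the 7 early libraries and from -0.06 to 1.11 (median 0.62) in the 16 late ones. The late libraries were higher as a set, with 11 of 16 above every early library. Spread had a median of 1.35 in the early and 1.49 in the late libraries.

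With limma no gene was called in these libraries (0 of 15838), and the smallest adjusted p of a member was 0.619. At an unadjusted p below 0.05, 49 members were higher and 1 was lower, which is 50 members beside 5.92% of all genes (937). The share over all genes depended on iPAAG horse 14, whose libraries of weeks 0, 2 and 4 are among the early ones. Without this horse there were 59 members, beside 2871 of all genes. The median difference over members was 0.45, against -0.03 over all genes and 0.07 over genes with a mean of 1 or more. Differences were above 0 in 120 members, beside 46.9% of all genes and 59.6% of genes with a mean of 1 or more. The 65 members called higher from week 4 to week 10 in the other libraries had a median of 0.53, the 6 called lower 1.02 and the 79 others 0.30. In iPAAG libraries alone, 27 members had an unadjusted p below 0.05, beside 1.79% of all genes. With week 4 moved to the later side, 11 had, beside 1.54%. With spread as a covariate, the median difference over members was 0.30 instead of 0.45, against -0.004 over all genes. In that limma fit 55 members had an unadjusted p below 0.05, beside 1287 of all genes.

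Among the named genes, ENSECAG00000001174 was at 2.47 to 4.54 in the early libraries of low spread. At week 6 it was at 5.68 to 9.14 (median 7.35, n = 6), above all of them, and at week 10 at 3.04 to 8.60 (median 5.02, n = 8), overlapping them. Its fitted difference was 2.90 ± 0.69 (SE, limma adjusted p = 0.619, unadjusted p = 0.000278). ENSECAG00000009626 had a difference of 1.91 ± 0.54 (SE, limma adjusted p = 0.619). It ran from 5.93 to 9.85 at week 6, against 3.89 to 6.39 in the 7 libraries of weeks 0 to 4, and the highest of these, the week 0 library, lay within the week 6 range. ENSECAG00000023416 differed by 0.01 ± 0.28 (SE, limma adjusted p = 0.992). In these libraries it was already at 3.24 to 4.23 over weeks 0 to 4 and did not repeat the low early values seen where spread was 2 or more.

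**Figure D4:**
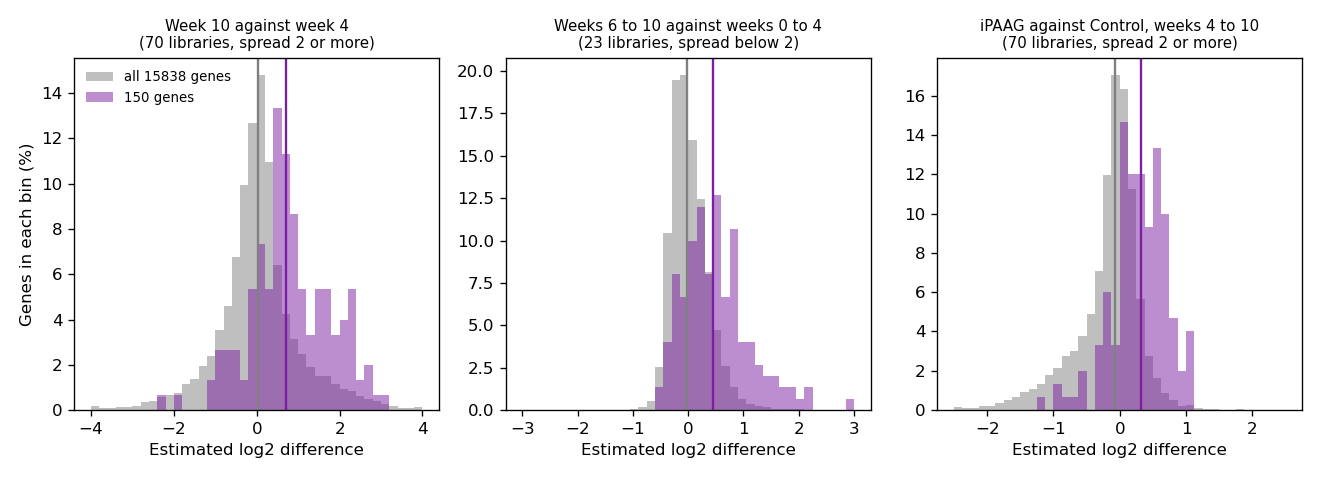
Share of genes (vertical axes, percent) by fitted log2 difference (horizontal axes) for the 150 genes and for all 15838, in 3 comparisons, with vertical lines at the medians and values beyond an axis counted in its end bins. The 150 genes lie to the right of all genes in each panel, with medians of 0.72 against 0.03, 0.45 against -0.03 and 0.31 against -0.07.

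The treatment question was whether the members changed differently after iPAAG than after saline. For the change from week 2 to weeks 4 to 10, the difference between arms was called by limma for 0 of the 150 members and 0 of 15838 genes. At an unadjusted p below 0.05 there were 9 members, 6.00%, beside 10.6% of all genes. The median difference was -0.10 in the members and -0.09 over all genes, and the smallest adjusted p of a member was 0.348. Estimates ran from -2.56 to 1.26 with a median SE of 0.50, so differences of a size common among the late changes were not detectable. With all 93 libraries the median difference was -0.40 in the members and -0.02 over all genes, and again 0 members were called. Within arms, the late change had a median of 0.71 in Control libraries, where all 150 members were above 0, and of 0.66 in iPAAG libraries, where 142 were. ENSECAG00000001174 had a late change of 2.46 in Control and 3.74 in iPAAG libraries, and the difference between arms in the change from week 2 was 0.72 ± 0.78 (SE, limma adjusted p = 0.763).

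The level over weeks 4 to 10 was called higher in iPAAG than in Control libraries for 2 members, 1.33% of them, beside 0.158% of all genes called higher and 0.385% called in either direction. The median difference over members was 0.31, with 123 above 0, against -0.07 over all genes. At an unadjusted p below 0.05, 44 members were higher and 3 lower, 47 members beside 16.6% of all genes. The direction did not hold with all 93 libraries, where the median over members was -0.11 against 0.03 over all genes. The members were already higher in the iPAAG arm at week 0, before surgery and injection, with a median difference of 0.27 and 110 above 0. At week 2, which may precede or follow the injection, the median was 0.46. It was 0.25, 0.13, 0.61 and 0.31 at weeks 4, 6, 8 and 10. The Control horse 11 library, low for these genes, is part of the week 0 value.

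Of both members called, the one ranked 132 in late change ran from 5.91 to 6.99 (median 6.38, n = 26) in Control and from 6.40 to 8.11 (median 7.11, n = 15) in iPAAG libraries of weeks 4 to 10. Its fitted difference was 0.62 ± 0.11 (SE, limma adjusted p = 0.00598), and the arms had differed by 0.19 at week 0 and 0.30 at week 2. The one ranked 53 ran from 6.47 to 8.68 (median 7.96) and from 7.41 to 9.71 (median 8.72), a difference of 0.73 ± 0.17 (SE, limma adjusted p = 0.0383), after 0.17 at week 0 and 0.74 at week 2. The arms overlapped for both. The count was between 0 and 6 when 1 horse was left out, with 0 without horse 5, so neither the number nor the choice of called members is settled by these samples.

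How far the list itself holds depends on its libraries. With all 93 libraries, 26 of the 150 members were chosen again. In Control libraries alone 58 were, and in iPAAG libraries alone 55. Leaving out 1 horse at a time, 107 to 139 were. The late change of ENSECAG00000001174 stayed between 2.93 and 3.25 over those fits, that of ENSECAG00000023416 between 1.94 and 2.47 and that of ENSECAG00000009626 between 1.22 and 1.51.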

How the data were processed

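RNA sequencing of synovial fluid cells gave 93 libraries, assigned to arm, week and horse by their labels. The authors deposited log2 CPM from voom, normalised, for 15838 genes. On that scale 100% of values were whole reads plus 0.5 (tolerance 0.05 reads). The submitters' processing notes name STAR 2.7.10b, EquCab3.0 and limma 3.62.2. How reads were counted, with which strand setting and low-gene filter, is not given in the sources used here, so overlapping or near-identical genes are uncertain.

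Members followed the rule in the report, with 4 genes left out by it. Members and lists were chosen with earlier results of these data known. By rule, identifiers are given for the 2 members with the largest late change and the 2 with the largest called fall from weeks 4 and 6 to weeks 8 and 10. These 4 places were taken by 3 genes.

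Tests used limma 3.58.1 in R 4.3.3 on the deposited log2 values of the 70 libraries with a spread of 2 or more: 12 arm-by-week means, a mean-variance trend, Benjamini-Hochberg adjustment over all 15838 genes and a threshold of 0.05. Horse was a random block (consensus correlation 0.09), because the labels name the same animal at every week. Deviations from group means had a mean correlation of 0.10 within horses (130 pairs) and -0.01 between different horses of different groups (2097 pairs). The 23 libraries not used were fitted separately, with a block correlation of 0.11. The procedure was tested on simulated data. Reads in genes were 1737741 to 39916655 per library (median 21063527). Shallower libraries give less precise values, most of all for genes with few reads. These are amplified reads, not counted molecules. Python 3.11.15 with numpy 2.4.6, pandas 2.3.3 and matplotlib 3.10.9 made the summaries and plots. Alternatives covered library choice, scaling, weights, filter, block and single horses.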

Additional observations from a re-analysis of the deposited data

Results flagged for a closer look

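The 10 groups by arm and week with 4 to 8 libraries of spread 2 or more were looked at for 4 measures, which gives 40 sets of values, and 3 held a library far from the others of its group, for the mean level of the 150 genes or for a named gene. Chance gives about 1 such set in 20. ENSECAG00000001174 was at 7.75 in the Control horse 1 library of week 0, while the other Control libraries of that week were at 4.22 to 5.56. The same gene was at 10.41 in the iPAAG horse 3 library of week 6, with the others at 9.46 to 9.60. The mean level of the 150 genes relative to week 0 was -1.17 in the Control horse 9 library of week 4, with the others at 0.14 to 0.60.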

How the results depend on the processing

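Median centring, quantile normalisation, spread as a covariate, voom weights, a filter on mean level and the block left the total of each late comparison within 1.5 times its value. The small counts of members called lower moved further: 6 became 3 with the fixed block at week 10 against week 4, and 8 became 5 with quantile normalisation and with no replicate block for weeks 8 and 10 against weeks 4 and 6. The arm difference in change stayed at 0 members under every setting run. With the replicate block as a fixed term, week 10 against week 4 called 57 members (2801 genes), and with no replicate block 62 (2811 genes). For weeks 8 and 10 against weeks 4 and 6 the counts were 65 (3611 genes) and 54 (2959 genes). With all 93 libraries, week 10 against week 4 gave 40 members (1488 genes), weeks 8 and 10 against weeks 4 and 6 gave 32 (912 genes), and the level between arms gave 63 members (30 higher and 33 lower, 8383 genes). For weeks 8 and 10 against weeks 4 and 6, arm as a term gave 76 members (3705 genes). The same without horse 5 gave 31 (1819 genes) and Control libraries alone 0 (0 genes). The level between arms gave 5 members at a spread of 3 or more (108 genes), 1 with quantile normalisation (19 genes) and 5 with no replicate block (193 genes). In the libraries of low spread, the 50 members at an unadjusted p below 0.05 became 11 with weeks 4 to 10 against weeks 0 and 2 and 27 in iPAAG libraries alone. ENSECAG00000023416 changed sign there in iPAAG libraries alone (-0.0687) and without horse 2 (-0.0945), 3 (-0.0285) or 14 (-0.1469), with values of -0.1469 to 0.0714 leaving out 1 horse.

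Leaving out horse 5 or 14 leaves 1 iPAAG library at week 10. With any other horse left out, week 10 against week 4 called from 38 members without horse 12 (1934 genes) to 75 without horse 1 (3686 genes). Weeks 8 and 10 against weeks 4 and 6 called from 51 without horse 2 (2802 genes) to 71 without horse 7 (3833 genes). The arm difference in change stayed at 0 members, and the level between arms reached at most 6, without horse 10 (350 genes). In the libraries of low spread, 0 members were called with any horse left out. At an unadjusted p below 0.05 there were from 37 without horse 5 (533 genes) to 59 without horse 14 (2871 genes). Between 107 and 139 members were chosen again. For both late comparisons the calls over all genes fell with those of the members, most of all without horse 5. The members chosen again were 26 with all 93 libraries, 93 with median centring, 77 with weekly medians, 58 in Control and 55 in iPAAG libraries alone. The causes of these shifts were not tested. The count-based tests and the TMM scaling that were planned were not run, since the deposited unit is log2, and the voom weights used the library sizes that the deposited values imply. Voom weights, the fit without the Control horse 11 library, arm as a term, Control libraries alone and all fits of the libraries of low spread were added after the data had been seen. At week 10, with 2 iPAAG libraries used, the number of libraries limits every value of that arm.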
